A study of Mus musculus with 14 samples.

Results

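In the aortic valve (AV), 10 genes for transcription factors of heart valve development were examined, namely Sox9, Nfatc1, Gata4, Gata5, Gata6, Tbx20, Twist1, Msx1, Msx2 and Snai2. They were chosen by name from developmental knowledge, with earlier results of these data known. They were 10 of the 56941 genes in the count table, and all 10 passed the minimum mean count of 10 that left 19145 genes for testing. Bulk RNA was sequenced from AV leaflets of wild type C57BL/6J mice (C57BL/6 in the sample labels), with 4 Ctrl, 2 LY, 4 AngII and 4 AngII+LY libraries. All mice were males of 8 weeks at the start and received the Breslow Western Diet. Ctrl mice were otherwise untreated. AngII mice received angiotensin II, a pressor peptide, at 1000 ng/kg/min from osmotic pumps for 28 days. LY mice received the HTR2B serotonin receptor antagonist LY272015 at 3 mg/kg by intraperitoneal injection without AngII, and AngII+LY mice received both agents. The labels place the AngII and AngII+LY mice 48 hours after pump removal whereas the study's methods describe removal in a subset, so time on AngII and time after it cannot be told apart. The leaflets were sequenced in bulk, so that fewer cells of a type and less RNA per cell cannot be told apart in any of the values below. Library totals ranged from 20990655 counts in AngII 4 to 73128220 in AngII 2.

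Valve leaflets form when endocardial cells undergo an epithelial to mesenchymal transition (EMT), enter the cushion matrix and become valve interstitial cells. NFATC1 and the GATA factors act in the endocardium and in the cushions, TBX20 and TWIST1 act in the proliferating cushion mesenchyme, SNAI2 (Slug) and the MSX homeodomain proteins act in EMT downstream of Notch and BMP signals, and SOX9 promotes the cartilage-like matrix program of the maturing leaflet. Several of these genes are known to remain active in adult valves and to be re-expressed in valve disease.

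The labelled tissue was checked with marker genes. All 10 markers of valve interstitial cells and fibroblasts passed the count minimum, with Dcn, a collagen-binding proteoglycan, as the most abundant, and so did all 10 endothelial, 10 cardiomyocyte and 10 smooth muscle markers. The interstitial markers held 0.410 to 0.645% of all counts in AngII+LY libraries, against 0.947 to 1.505% in AngII, 0.805 to 1.61% in Ctrl and 0.969 and 1.69% in the 2 LY libraries. Every AngII+LY library was below every other library in this share. The cardiomyocyte markers, with Tnnt2 of the thin filament as the most abundant, held 1.93 to 4.21% in AngII+LY libraries, against 0.770 to 1.54% in AngII, 1.59 and 1.88% in LY and 0.830 to 2.96% in Ctrl libraries, and the AngII+LY and AngII groups did not overlap. The endothelial markers, led by Pecam1, held 0.149 to 0.354% in AngII+LY libraries, against 0.172 to 0.322% in AngII, 0.266 and 0.2996% in LY and 0.186 to 0.356% in Ctrl libraries, with overlap among these groups. The smooth muscle markers, led by Acta2, held from 0.0563% up to 1.004%, in Ctrl 1, in Ctrl libraries, at most 0.374% in AngII+LY, at most 0.0943% in AngII and 0.0814 and 0.0923% in LY libraries. Mitochondrial transcripts held 3.998 to 7.52% of counts in Ctrl libraries, against 8.62 and 9.76% in LY, 9.83 to 25.5% in AngII and from 10.1 up to 20.2% in AngII+LY libraries. Their part in the values of the valve factors was not tested.

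**Figure D1:**
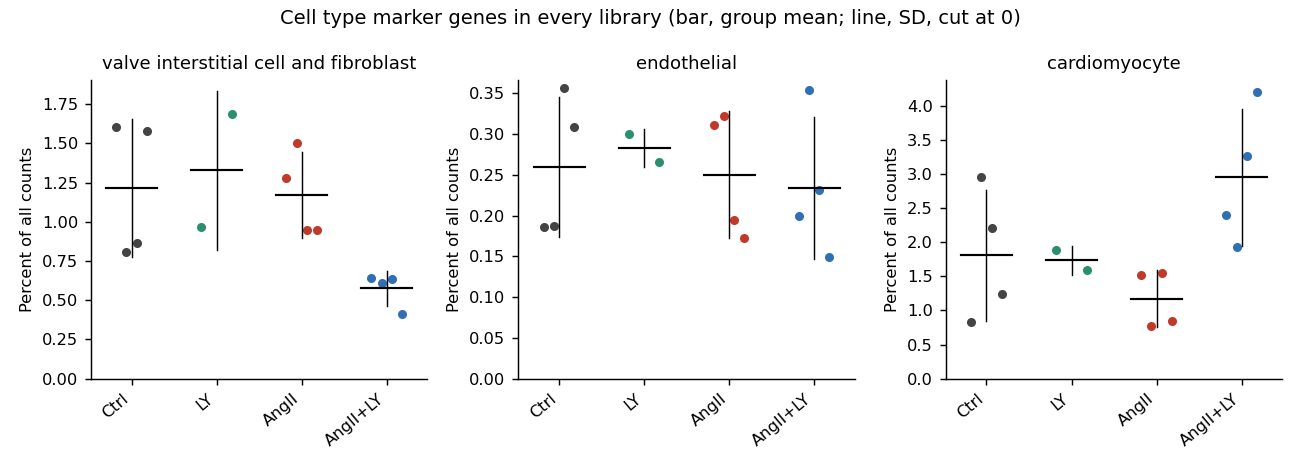
Share of all counts (percent, y axis) held by 10 marker genes each of valve interstitial cells and fibroblasts, endothelial cells and cardiomyocytes; 1 point is 1 library, the bar is the group mean and the vertical line the SD, cut at 0. The 4 AngII+LY libraries sit at 0.410 to 0.645% for the interstitial markers, under all 10 other libraries.

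The levels of the 10 genes in untreated valves were compared first, on the RPKM scale (reads per kb of exon, scaled to library size), since only values per length can be set side by side between genes. Gata4, a zinc finger factor of heart muscle and endocardium, stood first at 39.8 ± 12.9 (SD, n = 4). Msx1 followed at 25.0 ± 7.47 and Nfatc1, the calcineurin-dependent endocardial factor, at 18.8 ± 5.94. The ranges of these neighbours overlapped. Twist1 at 15.4 ± 4.52, Tbx20 at 14.8 ± 3.58, Sox9 at 14.2 ± 5.07, Gata5 at 11.4 ± 4.76, Snai2 at 9.35 ± 1.55 and Gata6 at 8.19 ± 0.870 formed a continuous series in which each gene overlapped the next. Msx2 alone stood apart at 0.757 ± 0.373 per kb, below the lowest Gata6 library. When the longest transcript replaced the union of exons as the length, Gata4, Msx1 and Nfatc1 kept the first places and Gata6 moved from place 9 to place 6.

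**Figure D2:**
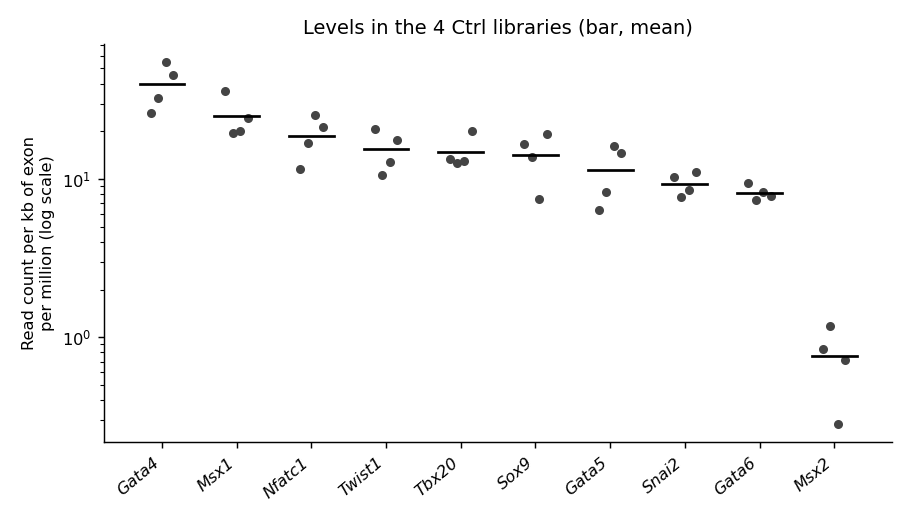
Level in the 4 Ctrl libraries on the RPKM scale, read count per kb of exon scaled to library size (log y axis) for the 10 genes in order of their mean; points are libraries and bars are means. The means run from 39.8 for Gata4 to 0.757 for Msx2, and Msx2 is the only gene whose range does not overlap its neighbour.

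Between treatment groups, no gene of the 19145 was called by edgeR's quasi-likelihood test (adjusted p under 0.05 and absolute log2 fold change above 0.5) in any of the 4 comparisons, so percent called was 0 and no valve factor was called. At an unadjusted p under 0.05 the test counted 4815 genes in AngII against Ctrl, 4315 in AngII+LY against AngII, 2112 in AngII+LY against Ctrl and 266 in LY against Ctrl. DESeq2, the tool of the study, called 2663 (13.9%), 2082 (10.9%), 343 (1.79%) and 21 genes (0.11%) at the same thresholds. Among the 10 valve factors it called Tbx20 in AngII+LY against AngII and none in the other 3 comparisons. The AngII comparisons share their AngII or Ctrl libraries with each other, and their values are given side by side. All counts of single genes below are normalised counts.

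**Figure D3:**
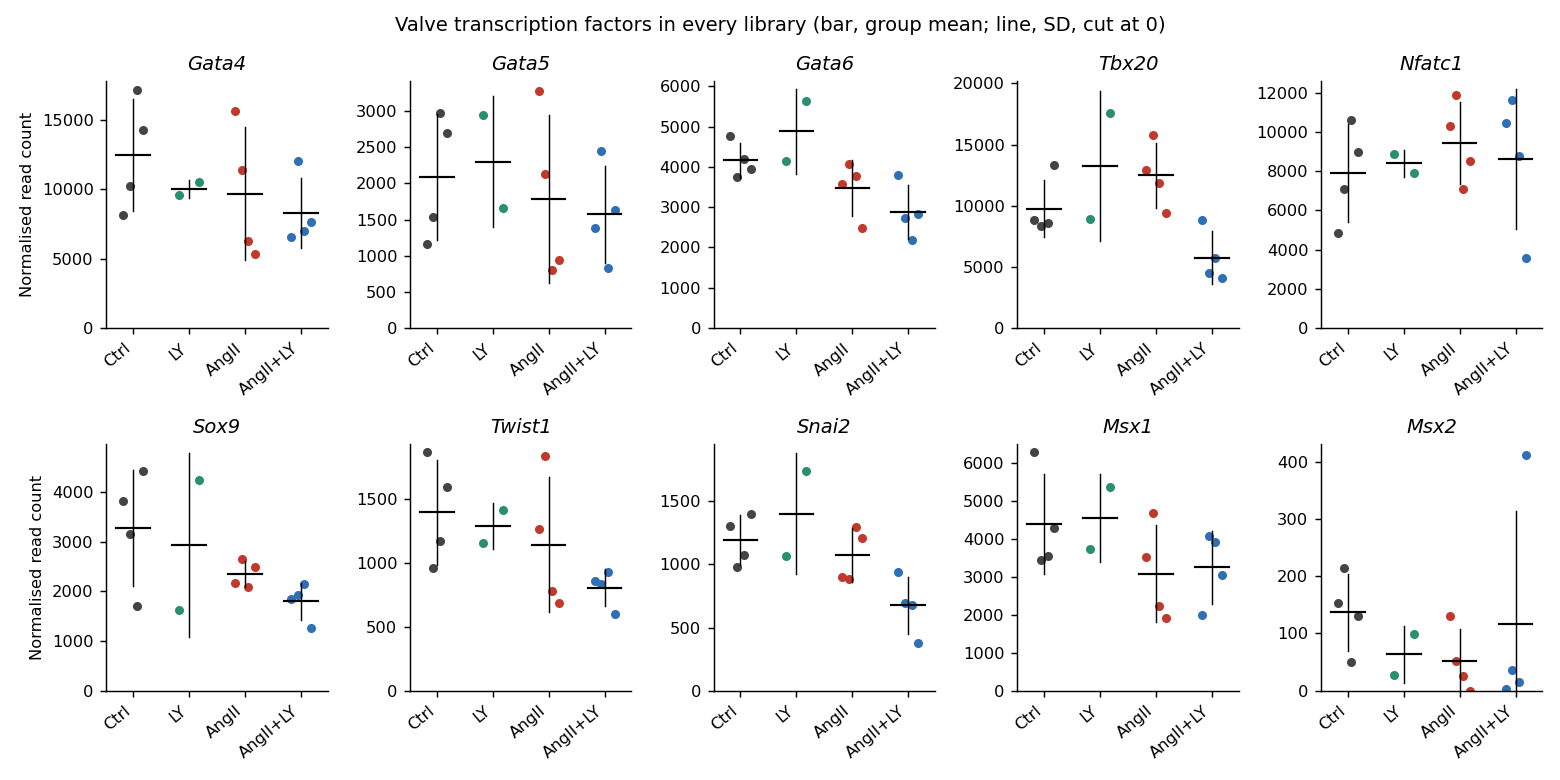
Normalised read count (linear y axis from 0, one scale per gene) of the 10 valve transcription factors in every library; points are libraries, bars group means and vertical lines SD, cut at 0. Tbx20 in the AngII+LY libraries lies at 4062 to 8807, below all 4 AngII libraries at 9377 to 15774, while Gata4 and Gata5 spread widely within every group of 4.

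Tbx20, a T-box factor needed for cushion growth and for adult heart muscle (chromosome 9, 24629434 to 24685599, minus strand, GRCm39), showed the clearest difference of the 10. Its normalised counts were 8841, 8380, 8551 and 13305 in Ctrl, 8895 and 17600 in LY, 12930, 15774, 11829 and 9377 in AngII, and 8807, 4472, 5687 and 4062 in AngII+LY libraries. All 4 AngII+LY libraries were below all 4 AngII libraries, whereas AngII overlapped Ctrl through the Ctrl 4 library. With n = 4 libraries each, AngII+LY averaged 5757 ± 2147 (SD) and AngII 12478 ± 2652 (SD), a log2 fold change of -1.12 ± 0.29 (SE) or 2.17-fold lower (edgeR adjusted p = 0.0662). The exact permutation test over the 8 libraries gave p = 0.0286, the smallest value that 4 against 4 allow. Of all genes tested, 11.1% did not overlap in this comparison, 5.66% in this direction, and Tbx20 was the single factor of the 10 that did not. DESeq2 gave an adjusted p of 0.0042 with a log2 fold change of -1.10.

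The log2 fold change of Tbx20 was 0.35 ± 0.28 (SE) in AngII against Ctrl (edgeR adjusted p = 0.465) and -0.76 ± 0.29 in AngII+LY against Ctrl (adjusted p = 0.349; exact permutation p = 0.0857). The difference between LY's effect with AngII and its effect without AngII was tested as an interaction over 14 libraries and amounted to -1.56 ± 0.44 for Tbx20 (edgeR adjusted p = 0.295; DESeq2 adjusted p = 0.0452, where 1.06% of genes were called). Only 2 LY libraries enter that interaction, with Tbx20 counts of 8895 and 17600. Without LY 2 the value was -0.98 (edgeR adjusted p = 0.704) and without LY 1 it was -1.97 (adjusted p = 0.554). At an unadjusted p under 0.05, Tbx20 was the single factor of the 10 in that test, beside 13.3% of all genes in either direction and 7.64% in the negative one, and Snai2 was next at -0.91 ± 0.42 (adjusted p = 0.377). Without LY 2, or with the replicate block and GC correction together, none of the 10 passed, whereas 2 passed in DESeq2, with RLE size factors, GC correction or the bias-adjusted quasi-dispersion and without LY 1, Ctrl 4, AngII 1, AngII 2 or AngII 4, and 3 without AngII+LY 1 (Tbx20, Snai2 and Gata6). When each library was corrected for gene GC content, the Tbx20 difference was -0.81 for AngII+LY against AngII (edgeR adjusted p = 0.205) and -0.91 for AngII+LY against Ctrl (adjusted p = 0.256), but its sign in AngII against Ctrl turned to -0.09.

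Snai2, a zinc finger repressor of epithelial genes (chromosome 16, 14523425 to 14527252, plus strand), was the other factor below an unadjusted p of 0.05 in AngII+LY against AngII, where 22.5% of all genes passed that threshold and 12.4% were lower. In this comparison 8 of the 10 factors had a negative value, beside 50.9% of all genes, and their median was -0.25, beside -0.02. Leaving out 1 library moved that median between -0.15 (without AngII+LY 3) and -0.41 (without AngII+LY 2), without AngII 1 only 6 were negative, and with GC correction it was -0.45 with 9 negative. Counts were 1308, 978, 1078 and 1402 in Ctrl, 1064 and 1741 in LY, 900, 886, 1300 and 1211 in AngII, and 941, 697, 681 and 381 in AngII+LY libraries. The highest AngII+LY library overlapped the lower AngII libraries, but all 4 AngII+LY libraries were below all 4 Ctrl libraries. The log2 fold change was -0.67 ± 0.27 against AngII (edgeR adjusted p = 0.166; exact permutation p = 0.0857) and -0.82 ± 0.27 against Ctrl (adjusted p = 0.314; exact permutation p = 0.0286). With GC correction the value of Snai2 was -0.33 in AngII+LY against AngII (edgeR adjusted p = 0.517), -0.92 in AngII+LY against Ctrl (adjusted p = 0.194) and -0.59 in AngII against Ctrl, in place of -0.15. Under that correction 3 factors were lower at an unadjusted p under 0.05 in AngII+LY against AngII, namely Twist1, Tbx20 and Gata6, beside 8.55% of all genes, and 4 in AngII+LY against Ctrl, namely Snai2, Tbx20, Sox9 and Twist1, beside 6.85%.

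Against Ctrl, 5 of the 10 factors were lower in AngII+LY valves at an unadjusted p under 0.05, where 11% of all genes passed that threshold and 6.14% were lower. The 5 were Snai2, Sox9, Tbx20, Gata6 and Twist1. The median log2 fold change of the 10 was -0.56, beside -0.02 over all genes tested, and 9 of 10 values were negative, beside 51.9% of all genes. Groups did not overlap for Twist1 and Snai2, beside 8.16% of all genes, 4.89% in this direction. Without the Ctrl 4 library, 2 of the 10 stayed under that p, and without Ctrl 1, 3 did.

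Twist1, a basic helix-loop-helix factor of cushion mesenchyme (chromosome 12, 34007645 to 34009828, plus strand), had counts of 1872, 960, 1171 and 1597 in Ctrl and of 862, 836, 930 and 602 in AngII+LY libraries. Every AngII+LY library was below every Ctrl library, and the gap between the nearest of them, 930 and 960, was small. The log2 fold change was -0.79 ± 0.31 (edgeR adjusted p = 0.367; exact permutation p = 0.0286). In AngII libraries Twist1 split into 1264 and 1843 in AngII 1 and 2 and 781 and 688 in AngII 3 and 4, which overlapped both other groups. LY libraries held 1160 and 1416.

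Sox9, the high mobility group factor that drives cartilage matrix genes (chromosome 11, 112673009 to 112678586, plus strand), had counts of 3814, 3147, 1711 and 4427 in Ctrl, 2165, 2650, 2090 and 2492 in AngII, and 1844, 1927, 2148 and 1264 in AngII+LY libraries. Ctrl 3 was as low as the AngII+LY libraries and the other Ctrl libraries were above all AngII and AngII+LY libraries. The log2 fold change in AngII+LY against Ctrl was -0.87 ± 0.31 (edgeR adjusted p = 0.337; exact permutation p = 0.114). The 2 LY libraries differed from each other by more than these means, at 1617 and 4241.

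Gata6, which acts with Gata4 in outflow tract and semilunar valve development, had counts of 4759, 3742, 4199 and 3935 in Ctrl and of 3785, 2720, 2193 and 2825 in AngII+LY libraries. The groups overlapped by 1 library, AngII+LY 1. The log2 fold change was -0.53 ± 0.20 (edgeR adjusted p = 0.359; exact permutation p = 0.0571). The AngII libraries, at 3576, 4066, 3780 and 2482, overlapped both groups, and LY libraries held 4142 and 5634.

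**Figure D4:**
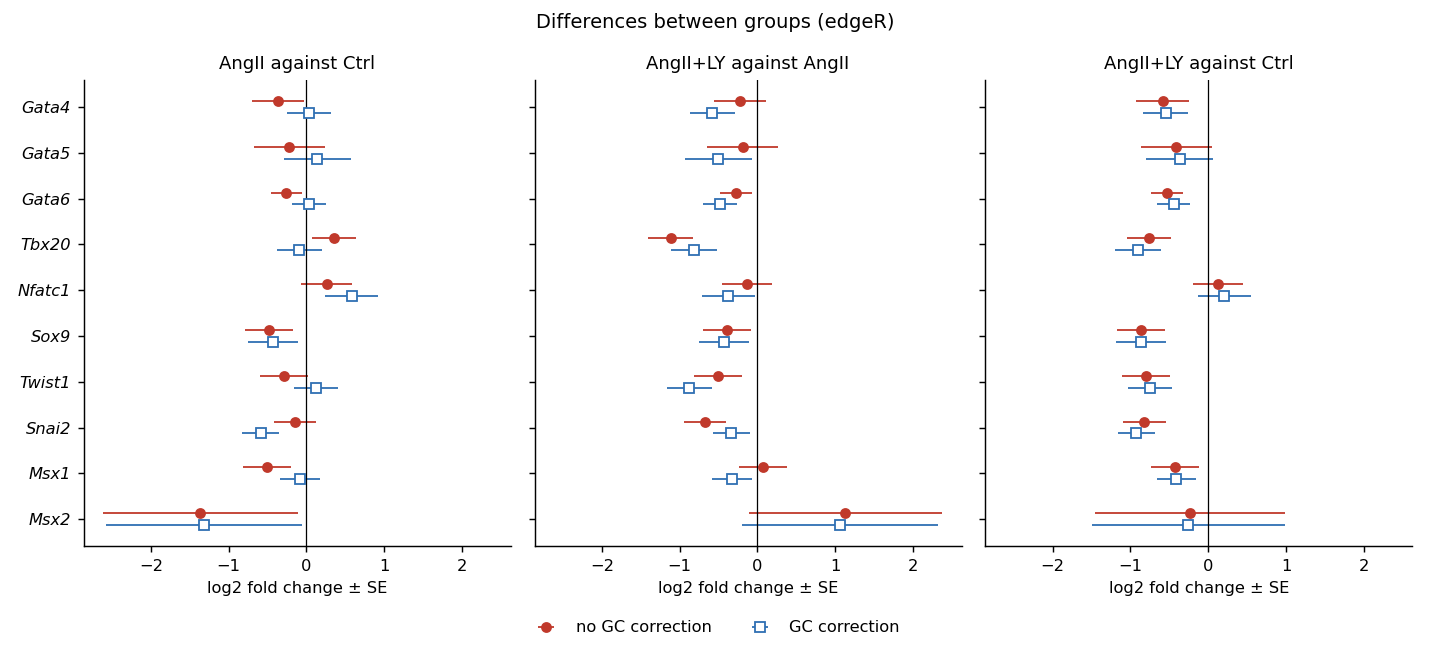
Log2 fold change ± SE (x axis) of the 10 factors in 3 comparisons from the edgeR fit without GC correction (filled) and with GC correction of each library (open). In AngII+LY against Ctrl, 9 of 10 values are negative in both fits; in AngII against Ctrl, 8 of 10 are negative without the correction and 5 of 10 with it.

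In AngII against Ctrl no factor reached an unadjusted p under 0.05, whereas 25.2% of all genes did and 11.7% were lower. The values of 8 of the 10 were negative, beside 52.7% of all genes. All 10 factors overlapped between the groups, beside 15% of all genes that did not. The median of the 10 was -0.27, beside -0.06 over all genes tested, and ran from -0.40 without AngII 2 to -0.15 without AngII 4. It was -0.40 with the replicate block and -0.026 with GC correction, beside -0.037 over all genes under that correction. The values ran from -0.51 ± 0.31 for Msx1 to 0.35 ± 0.28 for Tbx20, leaving aside Msx2, whose value was -1.37 ± 1.25. Leaving out 1 library brought 1 factor below that p in each of 2 cases, Msx1 without AngII 2 (-0.78) and Sox9 without Ctrl 3 (-0.69), and without Ctrl 1 the value of Msx1 was -0.28. Fold changes of all genes followed gene GC content in this comparison, with a Spearman correlation of -0.54 across 19043 genes, which are not independent replicates. In AngII+LY against AngII this correlation was 0.43, and Tbx20 and Snai2 had the lowest GC content of the 10 factors, at 42.3% and 43.3%. After GC correction, 5 of the 10 values in AngII against Ctrl were negative. Snai2 alone was lower there at an unadjusted p under 0.05, beside 6.44% of all genes. In the same comparison Gata4, Gata5, Gata6, Tbx20 and Twist1 changed sign, all within 0.14 of 0.

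Gata4 and Gata5, related zinc finger factors of the endocardium and myocardium, spread widely within groups. Gata4 counts were 8177, 10218, 17182 and 14275 in Ctrl, 15647, 11382, 6302 and 5344 in AngII, and 6556, 12015, 7004 and 7635 in AngII+LY libraries. Gata5 counts were 1167, 1532, 2968 and 2694 in Ctrl, 3282, 2128, 802 and 943 in AngII, and 1377, 2450, 829 and 1633 in AngII+LY libraries. Ctrl 3 and 4, AngII 1 and 2 and AngII+LY 2 were high for both genes, and AngII 3 and 4 were low. The coefficient of variation within AngII was 49.5% for Gata4 and 64.8% for Gata5. None of their differences between groups reached an unadjusted p under 0.05, and the largest was -0.59 ± 0.34 for Gata4 in AngII+LY against Ctrl (exact permutation p = 0.143).

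Nfatc1 was the single factor with a positive value in AngII+LY against Ctrl, at 0.12 ± 0.32 (exact permutation p = 0.943). Its counts were 4839, 7122, 10636 and 9007 in Ctrl, 10333, 11882, 7087 and 8524 in AngII, and 10442, 11655, 8794 and 3564 in AngII+LY libraries. The groups overlapped throughout, and AngII+LY 4 was the lowest of the 14 libraries. Msx1 likewise overlapped in every comparison, with counts of 6275, 3447, 3546 and 4270 in Ctrl, 3522, 4675, 2227 and 1909 in AngII, and 1984, 4067, 3918 and 3041 in AngII+LY libraries.

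Msx2, a BMP target and an activator of the osteogenic program, had the lowest counts of the 10 and a wide spread between libraries. Its counts were 153, 214, 50.8 and 131 in Ctrl, 27.6 and 98.9 in LY, 130, 52.4, 26.4 and 0 in AngII, and 2.75, 35.5, 15.8 and 411 in AngII+LY libraries. In AngII 4, the smallest library, 0 counts allow a normalised count of up to 9.93, the value of 3 counts in that library, and the 2.75 of AngII+LY 1 was also under its floor of 4.12. A single library, AngII+LY 4, held most of the AngII+LY counts. Without it the log2 fold change in AngII+LY against AngII turned from 1.13 to -1.54, so no direction was read for Msx2.

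LY without AngII was compared with Ctrl over 2 and 4 libraries, where the smallest exact permutation p is 0.0667. None of the 10 factors reached an unadjusted p under 0.05 in edgeR, where 1.39% of all genes did and 0.763% were lower. All 10 overlapped between the groups, beside 12% of all genes that did not. In all, 6 values were positive and 4 negative, beside 54.1% of all genes with a negative value, with a median of 0.07, beside -0.03 over all genes tested. These rested on 1 library: without LY 2, 2 values were positive and 8 negative with a median of -0.20, and Sox9 was below an unadjusted p of 0.05 at -1.02 (edgeR adjusted p = 1), whereas without LY 1, 7 were positive and 3 negative with a median of 0.15. With the replicate block 3 were positive and 7 negative, with a median of -0.18. For Tbx20 the value was 0.44 ± 0.34 and for Snai2 0.23 ± 0.33 (exact permutation p = 0.467 for both). The errors of the 10 values ran from 0.24 for Gata6 to 1.58 for Msx2.

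The factors were next set beside the marker genes of interstitial cells, endothelial cells and cardiomyocytes, library by library. The marker score of a library was the mean log2(normalised count + 1) of a list of 10 markers, none of which is among the 10 factors, and 30 relations (10 factors and 3 lists) were computed over the 14 libraries, after the values of the factors had been seen, with permutation tests and Benjamini-Hochberg adjustment. Tbx20 followed the interstitial score most closely, with Pearson's r = 0.92 (permutation p = 1e-05, the smallest that 100000 permutations give, adjusted p = 0.0003) and Spearman's rho = 0.89 (permutation, adjusted p = 0.0003). Without the 2 libraries farthest from the median score r was 0.87, without any 1 library it was 0.89 to 0.96, and within groups, after subtraction of the group means, it was 0.84 (permutation p = 6e-05, adjusted p = 0.0018). Twist1 was second with r = 0.85 (permutation p = 0.00017, adjusted p = 0.0025) and rho = 0.81 (adjusted p = 0.0114), 0.80 without the 2 farthest libraries and 0.86 within groups (adjusted p = 0.0208).

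Gata6, Snai2 and Sox9 were also related to the interstitial score, with r = 0.76, 0.76 and 0.74 (permutation p = 0.0016, 0.00093 and 0.00245, adjusted p = 0.0097, 0.0076 and 0.0122) and rho = 0.70, 0.67 and 0.71 (adjusted p = 0.0295, 0.0369 and 0.0273). Without the 2 farthest libraries these values of r were 0.69, 0.59 and 0.59. Within groups they were 0.64, 0.41 and 0.70, none of which passed the adjustment (adjusted p = 0.110, 0.371 and 0.105). With Tbx20 and Twist1 they are the 5 that were lower in AngII+LY than in Ctrl valves at an unadjusted p under 0.05, and the AngII+LY libraries enter both measures. The other 5 had r between 0.20 and 0.47 with this score, and none passed the adjustment. The share of all genes tested that follow this score or the other scores was not counted. The relations are therefore not read as particular to the valve factors. Without AngII+LY 4, r moved from 0.20 to -0.25 for Nfatc1 and from 0.22 to 0.52 for Msx2, and without AngII+LY 3 from 0.24 to 0.11 for Gata5.

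Nfatc1 was instead related to the endothelial score, with r = 0.70 (permutation p = 0.0052, adjusted p = 0.0223), rho = 0.64 (adjusted p = 0.0523), 0.69 without the 2 farthest libraries and 0.77 within groups (adjusted p = 0.0208). Gata5 had r = 0.61 (adjusted p = 0.0621) and rho = 0.77 (adjusted p = 0.0202), and Gata4 r = 0.57 (adjusted p = 0.0884) and rho = 0.67 (adjusted p = 0.0369), so that rank and linear measures fell on different sides of the threshold for all 3 genes. Without the 2 farthest libraries r was 0.51 for Gata5 and 0.48 for Gata4, and within groups 0.63 and 0.72 (adjusted p = 0.110 and 0.0562). With the cardiomyocyte score the relations of Twist1 and of Snai2 were negative, at r = -0.77 (permutation p = 0.00102, adjusted p = 0.0076) and -0.67 (adjusted p = 0.0318), with rho = -0.72 (adjusted p = 0.0273) and -0.59 (adjusted p = 0.0769). Sox9 had r = -0.63 (adjusted p = 0.0487) and rho = -0.62 (adjusted p = 0.0547), and Tbx20 r = -0.62 (adjusted p = 0.0517) and rho = -0.73 (adjusted p = 0.0273). Without the 2 farthest libraries r was -0.59 for Twist1, -0.39 for Snai2, -0.37 for Sox9 and -0.59 for Tbx20, and without AngII+LY 4 alone it was -0.44 for Snai2. Within groups these values of r with the cardiomyocyte score were -0.71, -0.44, -0.50 and -0.29 for Twist1, Snai2, Sox9 and Tbx20, and none passed the adjustment.

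**Figure D5:**
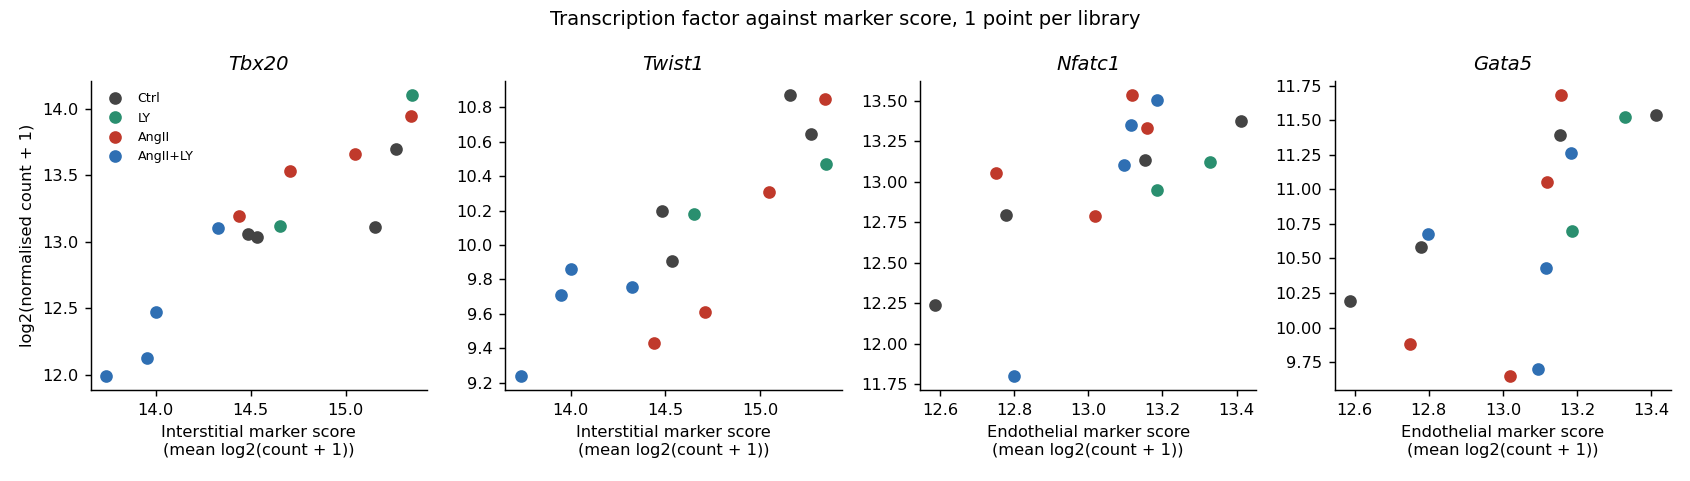
Log2(normalised count + 1) of 4 factors (y axis) against the score of 10 interstitial or 10 endothelial markers (x axis, mean log2(normalised count + 1)) in the 14 libraries, coloured by group. Tbx20 and Twist1 rise with the interstitial score (r = 0.92 and 0.85), and Nfatc1 and Gata5 with the endothelial score (r = 0.70 and 0.61).

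Because the interstitial score itself was lowest in the AngII+LY libraries, at 13.7 to 14.3 against 14.4 to 15.3 in all others, Tbx20 was also expressed relative to it. The log2 value of Tbx20 minus the score was -2.04, -1.50, -1.42 and -1.56 in Ctrl, -1.39, -1.40, -1.18 and -1.25 in AngII, and -1.22, -1.82, -1.53 and -1.75 in AngII+LY libraries. In LY 1 and LY 2 it was -1.53 and -1.24. On this scale AngII+LY overlapped both AngII and Ctrl, and every AngII library was above every Ctrl library, by a small gap between -1.40 and -1.42. LY 2, without AngII, was also above every Ctrl library. The share of all genes without overlap on this scale was not counted, so nothing is read from that gap. The group means were -1.63 ± 0.28 (SD, n = 4) in Ctrl, -1.30 ± 0.11 in AngII and -1.58 ± 0.27 in AngII+LY. For Twist1 the corresponding means were -4.46 ± 0.19, -4.84 ± 0.27 and -4.36 ± 0.21, and for Snai2 -4.65 ± 0.19, -4.83 ± 0.66 and -4.67 ± 0.33. Gata6 had -2.84 ± 0.38, -3.15 ± 0.23 and -2.54 ± 0.27, and Sox9 -3.27 ± 0.35, -3.69 ± 0.38 and -3.22 ± 0.27, in the same order of Ctrl, AngII and AngII+LY. These differences are a description, and the part of cell composition in the lower counts of the genes was not tested.

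Sequence upstream of the start is shown for Tbx20 and Twist1, the pair that followed the interstitial score most closely. RefSeq promoter entries (GRCm38.p6) were matched for 5 of the 10 genes, Gata5, Msx1, Tbx20, Twist1 and Msx2, and the 250 bases before the start are printed 5′ to 3′ on the gene's strand. Capitals mark every match, on either strand, to the E-box CANNTG, its SNAI-type form CAGGTG, the GATA motifs AGATAA and TGATAA, the T-box half-site GGTGTGA, the SOX motif ACAAT, the MSX motif TAATTG, the NFAT core GGAAA and the TATA box TATAAA.
Tbx20 chr9:24774304-24774553 minus strand: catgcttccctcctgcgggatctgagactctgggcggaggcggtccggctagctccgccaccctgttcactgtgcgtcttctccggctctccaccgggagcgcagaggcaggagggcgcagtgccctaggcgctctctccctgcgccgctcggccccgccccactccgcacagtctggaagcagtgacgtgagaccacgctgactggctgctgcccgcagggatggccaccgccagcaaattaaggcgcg
Twist1 chr12:33957421-33957670 plus strand: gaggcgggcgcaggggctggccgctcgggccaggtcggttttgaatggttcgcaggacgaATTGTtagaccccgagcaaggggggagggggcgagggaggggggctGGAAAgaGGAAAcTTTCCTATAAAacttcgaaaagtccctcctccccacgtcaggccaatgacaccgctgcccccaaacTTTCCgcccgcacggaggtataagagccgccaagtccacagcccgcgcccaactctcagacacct

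No letters of these motifs occurred in the Tbx20 stretch. The Twist1 stretch held 4 NFAT cores, 1 SOX motif and 1 TATA box, where 61.3%, 31% and 13.6% of all 32851 promoters held at least 1. E-boxes occurred in the promoters of Gata5, Msx1 and Msx2 and in 72.3% of all promoters, and the CAGGTG form, which is also an E-box, in that of Msx1 and in 20.2% of all. GATA, T-box and MSX motifs occurred in none of the 5, beside 11.2% and 9.05% of all promoters with AGATAA and TGATAA, 3.98% with GGTGTGA and 8% with TAATTG. Both printed stretches were rich in G and C, at 68.8% and 62.4%. Shares and matches were counted over whole RefSeq entries, which run a short way past the start. A match of letters is a description and not a binding site.

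Genes linked to each factor were counted on lists written for this purpose, and none of their genes was called by edgeR. Fold changes and counts of these lists, and of the marker lists below, are without GC correction and were not computed with it. With that correction, edgeR counted 2604 of all genes at an unadjusted p under 0.05 in AngII against Ctrl, in place of 4815. In AngII+LY against AngII it counted 3054, in place of 4315. The counts of higher and lower genes that follow are at an unadjusted p under 0.05, where 13.4% of all genes were higher and 11.7% lower in AngII against Ctrl, 10.1% higher and 12.4% lower in AngII+LY against AngII, 4.89% higher and 6.14% lower in AngII+LY against Ctrl, and 0.627% higher and 0.763% lower in LY against Ctrl. Of the cartilage matrix genes linked to SOX9, 11 of 14 were tested. Of these, 1 was higher and 2 lower in AngII against Ctrl, 2 were lower in AngII+LY against AngII, and 1 was higher and 5 lower in AngII+LY against Ctrl. Comp, a matrix protein of cartilage and tendon, had the smallest p in AngII against Ctrl at -1.19 ± 0.44 (edgeR adjusted p = 0.122), and Col9a1, a fibril-associated collagen, in AngII+LY against AngII at -1.87 ± 0.78 (adjusted p = 0.176). Among 9 other SOX genes, 1 was higher and 1 lower in AngII. Sox17, an endothelial SOX factor, had a log2 fold change of 1.66 ± 0.42 (adjusted p = 0.0588), and Sox7 had the smallest p in AngII+LY against AngII at -0.39 ± 0.23 (adjusted p = 0.337).

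In the calcineurin and NFAT list, 4 of 13 genes were higher and 2 lower in AngII against Ctrl, and 3 were lower in AngII+LY against AngII. Ppp3r1, the regulatory subunit of calcineurin that lets NFAT enter the nucleus, led both, at 1.07 ± 0.24 (edgeR adjusted p = 0.0574) and then -0.78 ± 0.24 (adjusted p = 0.0898). Of 13 genes in the GATA list, which held Gata1, Gata2 and Gata3 beside cofactors and cardiac partners, 2 were lower in AngII against Ctrl, and 2 were higher and 1 lower in AngII+LY against AngII. Srf, a partner of GATA4 on muscle genes, was -0.98 ± 0.34 and then 1.05 ± 0.34 (adjusted p = 0.106 and adjusted p = 0.104).

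Among 6 other T-box genes, 2 were lower in AngII against Ctrl, led by Tbx1 at -2.20 ± 0.84 (edgeR adjusted p = 0.129), and 1 was lower in AngII+LY against AngII, Tbx18, at -1.03 ± 0.38 (adjusted p = 0.136). Tbx18 marks epicardial and mural cells. Of 11 TWIST partners and ID proteins, 3 were lower in AngII against Ctrl, with Tcf21 of fibroblast progenitors at -1.21 ± 0.35 (adjusted p = 0.0746), and 1 was lower and 2 higher in AngII+LY against AngII. Tcf12, an E protein that pairs with TWIST1, was the lower one, at -1.42 ± 0.33 (adjusted p = 0.0588), with 3830 ± 1346 normalised counts in AngII+LY and 10227 ± 1814 in AngII libraries (SD, n = 4).

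Of 19 other EMT transcription factors, 3 were higher and 3 lower in AngII against Ctrl, and 3 were lower in AngII+LY against AngII. Heyl, a Notch target, was -1.53 ± 0.46 in AngII against Ctrl (edgeR adjusted p = 0.0812), and Zeb1, a repressor of E-cadherin, was -0.70 ± 0.21 in AngII+LY against AngII (adjusted p = 0.0901). Of 16 genes in the BMP list, which held 14 ligands, receptors and SMADs together with the homeobox genes Dlx3 and Dlx5, 2 were higher in AngII against Ctrl, with Bmpr2 at 1.19 ± 0.26 (adjusted p = 0.0574), and 4 were lower in AngII+LY against AngII, with Bmpr1a at -0.70 ± 0.25 (adjusted p = 0.129). Of 10 EMT and valve matrix effectors, 1 was higher and 1 lower in AngII against Ctrl, where Fn1, fibronectin, was -0.63 ± 0.21 (adjusted p = 0.0998), and 4 were lower in AngII+LY against AngII. Postn, a matricellular protein of cushions and fibroblasts that is also on the interstitial marker list, was -1.51 ± 0.43 there (adjusted p = 0.0793). The median log2 fold change in AngII+LY against AngII, beside -0.02 over all genes, was -0.71 for the cartilage matrix list, -0.65 for the matrix effectors, -0.35 for the calcineurin and NFAT list, -0.20 for the BMP list, -0.11 for the EMT factors, 0.03 for the GATA list, 0.09 for the TWIST partners, 0.21 for the SOX genes and 1.04 for the T-box genes. In AngII+LY against Ctrl, 2 matrix effectors were higher and 2 lower, 1 TWIST partner was higher and 2 lower, 1 EMT factor and 1 BMP list gene were higher and 1 of each lower, 1 gene of the NFAT list and 1 of the GATA list were lower, and 1 T-box gene and 1 SOX gene were higher. In AngII against Ctrl, beside -0.06 over all genes, the medians of the same lists in that order were -0.41, 0.31, 0.12, 0.03, -0.07, -0.47, -0.25, 0.01 and -1.57. The 2 T-box medians rested on single libraries, with -0.20 in AngII+LY against AngII without AngII+LY 4 and -0.28 in AngII against Ctrl without Ctrl 2. Other medians moved as well. In AngII against Ctrl the cartilage median was -1.17 without AngII 2 and -0.22 without Ctrl 2. The NFAT list median there was 0.39 without AngII 2. In AngII+LY against AngII the SOX median was -0.008 without AngII+LY 3 and -0.005 without AngII 1. The GATA list median there was 0.23 without AngII 1 and -0.18 without AngII+LY 4. Leaving out 1 library gave 1 to 4 lower matrix effectors and 2 to 6 lower BMP list genes in AngII+LY against AngII, and 2 to 5 lower cartilage genes in AngII+LY against Ctrl. In AngII+LY against AngII, 0 cartilage genes were lower without AngII 1 or AngII+LY 3, and 4 without AngII 4. In AngII against Ctrl, 0 cartilage genes were lower without AngII 3 and 3 without AngII 2. There 0 T-box genes were lower without Ctrl 2, and 1 TWIST partner without Ctrl 1. Of the NFAT list, 0 were lower there without Ctrl 1, Ctrl 3, Ctrl 4 or AngII 3.

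Marker lists were counted in the same way, beside the same shares of all genes. Some genes stand on several lists, so the lists are not separate evidence. The interstitial marker Postn and the endothelial marker Cdh5 are also matrix effectors. Sox10 is on the SOX, melanocyte and Schwann lists, and all chondrocyte markers are also on the cartilage matrix list. Of the 10 interstitial markers, 6 were lower in AngII+LY against AngII and 7 in AngII+LY against Ctrl, with medians of -0.97 and -0.99, and in AngII against Ctrl 1 was higher and 1 lower. Of the 10 cardiomyocyte markers, 8 and 6 were higher, with medians of 1.38 and 1.11, and 1 was higher in AngII against Ctrl. Leaving out 1 library gave 6 to 7 and 5 to 9 lower interstitial markers, and 5 to 8 and 2 to 10 higher cardiomyocyte markers, with the 2 reached without Ctrl 1 or Ctrl 4. Of the 10 smooth muscle markers, 8 were lower in AngII against Ctrl, with a median of -2.35, 3 were higher in AngII+LY against AngII and none passed that p in AngII+LY against Ctrl. In LY against Ctrl all 10 smooth muscle markers also had a negative value and 4 were lower, with a median of -2.84. Both comparisons depended on Ctrl 1: without it 1 marker was lower in AngII and 2 in LY, with medians of -0.99 and -1.24, and without either LY library none passed in LY against Ctrl. Acta2, smooth muscle actin, had normalised counts of 284730 and 39775 in Ctrl 1 and 2, 5386 and 7455 in Ctrl 3 and 4, and 6373 to 11961 in AngII libraries. In LY against Ctrl 3 of 10 endothelial markers were higher and 2 of 8 lymphocyte markers lower, and no gene of the other marker lists or of the linked lists passed that p.

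Of the other marker lists, 6 of 10 adipocyte markers were lower in AngII against Ctrl (median -1.53) and 3 higher in AngII+LY against AngII (0.06). Of 10 macrophage markers, 5 were lower (-0.87) and 2 higher (0.43), and of 8 tested lymphocyte markers 2 were lower (-0.88) and 1 higher (0.41) in these comparisons. Of 4 tested skeletal muscle markers, 1 was higher and 1 lower (-0.26) and then 2 were higher (1.69), and of 5 tested chondrocyte markers 1 was higher and 1 lower (-0.41) and then 1 lower (-0.07). Of 10 endothelial markers, 2 were higher and 1 lower (0.17) and then 1 higher and 1 lower (-0.0016). None of the 8 melanocyte markers (-1.06 and -1.003) or 6 tested Schwann and neuronal markers (-0.39 and -0.16) passed that p in either comparison. In AngII+LY against Ctrl, 3 adipocyte, 4 macrophage, 1 melanocyte, 1 lymphocyte and 1 Schwann and neuronal marker were lower, 1 endothelial and 1 skeletal muscle marker were higher, and of the chondrocyte markers 1 was higher and 1 lower. The part of the marker lists in the counts of the factors and the linked genes was not tested.

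The genes most like each factor were taken as those with the highest Pearson's r within groups over the 14 libraries, among the 13619 genes whose mean count reached 100. For Tbx20 they were Ppm1d (0.94) and C1qtnf7 (0.91), for Twist1 Slc2a10 (0.94) and Fzd10os (0.94), for Snai2 Copb1 (0.93) and Crebzf (0.92), for Sox9 Adcy7 and Setdb1 (both 0.87) and for Gata6 Zbtb39 (0.92) and Pdcd11 (0.90). For Gata4 they were Scarf1 (0.98) and Plpp3 (0.96), for Gata5 Ppp1r13b (0.94) and Fxyd7 (0.93), for Nfatc1 Gpatch2 (0.96) and Ikbkb (0.95), for Msx1 Rce1 (0.96) and Fkbp10 (0.96) and for Msx2 Ppp1r1b (0.95) and Rrp9 (0.94). Among the 10 factors themselves, 36 of 45 pairs had an r above 0 within groups, with a median of 0.25. The same share and median over pairs of all genes were not computed, so nothing is read from this count. All of these r come from the same 14 libraries, which differ in depth and in cell type markers, and they are given as a description. The r of the genes most like each factor were picked as the highest of 13619. How high an r such a choice alone gives was not tested.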

How the data were processed

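The authors checked reads with FastQC 0.12.1, trimmed them, aligned them to GRCm39 with HISAT2 and counted them on genes with featureCounts. The table they deposited is named normalized but holds raw counts in whole numbers. Among counts of 1 to 20, even values (47957) outnumbered odd ones (30917), a feature the sources used here do not explain. Lengths and GC content came from GENCODE vM39 (GRCm39), which lacked 618 genes holding 0.0361% of the counts. In R 4.3.3, the 19145 genes whose mean count reached 10 were tested with edgeR 4.0.16 (quasi-likelihood, package defaults, TMM) in 1 fit of all 4 groups. Calls needed an adjusted p (Benjamini-Hochberg) under 0.05 together with a log2 fold change over 0.5 in size. A bias-adjusted version of the fit was run first, with 555 and 176 calls in AngII against Ctrl and AngII+LY against AngII, and the package default, which the design named, replaced it after those calls had been seen. Normalised counts are counts over the TMM library size relative to its mean. The design text gives 4 mice per group and the methods a larger minimum of hearts; the sources used here do not tie single animals to libraries, so p-values measure the spread between libraries, which may be technical. Floors of 3 counts cover counting error only. Single genes were also compared by exact 2-sided permutation tests. Alternatives were DESeq2 1.42.0, limma 3.58.1, RLE size factors, no filter, a fit of only those groups, a replicate block, GC correction (loess, span 0.3) and leaving out each library. Robust and bias-adjusted edgeR fits and the leave-one-out of the marker correlations and of the gene list counts were added after the data had been seen. Fits were tested on simulated data, from which no value given here is taken. The 10 genes, the lists and the tests were chosen with earlier results of these data known. Named genes were the 10 factors, the gene with the smallest p of each linked list in AngII against Ctrl and in AngII+LY against AngII, and the 2 genes most like each factor.

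Groups were taken from the sample titles, because the treatment labels of 4 animals given LY carry other compound numbers than LY272015. The injection schedule is given as every other day in one source and as 2 per week in another, and 2 LY libraries were analysed here although the design names 4 mice per group.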

Additional observations from a re-analysis of the deposited data

Results flagged for a closer look

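Among groups of 4 libraries, 1 value can stand far from the other 3, and chance alone gives this in about 1 of 20 groups; 66 groups were examined and 6 stood out. The Tbx20 normalised count of 13305 in Ctrl 4 lay above the other Ctrl libraries at 8380 to 8841; without it the difference of Tbx20 in AngII+LY against Ctrl was -0.58 (edgeR adjusted p = 0.570). The Msx2 normalised count of 411 in AngII+LY 4 lay above the others of its group at 2.75 to 35.5. In the same library the interstitial and fibroblast markers held 0.410% of counts, below the others at 0.613 to 0.645%, and the Schwann and neuronal markers held 0.0074%, above the others at 0.0049 to 0.0052%. Melanocyte markers held 0.0473% in Ctrl 1, where the other Ctrl libraries had 0.0034 to 0.0088%, and 0.0220% in AngII 2, where the other AngII libraries had 0.0015 to 0.0043%. Their part in the levels of the valve factors was not tested.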

How the results depend on the processing

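The number of genes called by edgeR, 0 in each comparison, depended on the method. DESeq2 called 2663 genes in AngII against Ctrl, 2082 in AngII+LY against AngII, 343 in AngII+LY against Ctrl, 21 in LY against Ctrl and 203 for the difference of LY's effect, and 1 of the 10 factors (Tbx20). Without the filter edgeR called 123, 1 and 13 in the first 3 comparisons, with the bias-adjusted quasi-dispersion 555 and 176 in the first 2, and limma-trend called 319 in AngII+LY against AngII and 4 in AngII+LY against Ctrl. Leaving out 1 library gave 0 to 1725, 0 to 844 and 0 to 3 genes in the first 3 comparisons; the 1725 and 844 came without AngII 1, 805 without Ctrl 4 and 382 without AngII 2. The count of factors lower at an unadjusted p under 0.05 in AngII+LY against AngII was 2, and 1 with only the groups compared or with the replicate block, and 1 to 2 without 1 library; in AngII+LY against Ctrl it was 5, and 2 to 5 without 1 library. The cause of these differences was not tested.

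With GC correction the log2 fold change in AngII against Ctrl turned to 0.033 for Gata4, 0.14 for Gata5, 0.029 for Gata6, -0.092 for Tbx20 and 0.12 for Twist1, and that of Msx1 in AngII+LY against AngII to -0.33. With the replicate block and GC correction the values were 0.00031 for Gata4, 0.026 for Gata6, -0.17 for Tbx20 and 0.11 for Twist1, and in AngII+LY against AngII -0.30 for Msx1 and -0.19 for Msx2. The replicate block alone turned Msx2 to -0.14 in AngII+LY against AngII, where Tbx20 was -1.11 (adjusted p = 0.121). Same-numbered libraries of different groups had correlations of -0.295 to 0.251, with 5 of 18 over 0.1, so the numbers were not read as pairs.

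Among the values compared, leaving out 1 library turned the sign of 10: in AngII+LY against AngII for Gata4 (-0.43 to 0.11), Gata5 (-0.46 to 0.28), Msx1 (-0.10 to 0.35), Msx2 (-1.54 to 2.08) and Nfatc1 (-0.29 to 0.12); in AngII+LY against Ctrl for Msx2 (-2.91 to 0.17) and Nfatc1 (-0.051 to 0.38); in AngII against Ctrl for Gata5 (-0.69 to 0.023); and in LY against Ctrl for Snai2 (-0.16 to 0.55) and Tbx20 (-0.14 to 0.85). Where 1 LY library was left out, the other was assumed to vary like the other groups. The 34 values compared are those of the 10 factors in the 3 AngII comparisons and, for Tbx20 and Snai2, in LY against Ctrl and the difference of LY's effect, a choice made after the values were seen. Over all 50 values of the 10 factors, 22 signs changed under other settings, each with GC correction or the block, and leaving out 1 library changed 44 signs in 22 of the values. Fitting only the groups compared gives no value for the difference of LY's effect. Msx2 had the lowest depth of the 10 factors, with a mean count of 108, and the part of depth in its spread was not tested.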
